A study of Mus musculus with 12 samples.

Results

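The levels of 10 imprinted genes tied to growth control in blood stem cells, namely Peg10, Sgce, Igf2r, Grb10, Meg3, H19, Plagl1, Peg3, Ndn and Mest, were followed through 12 RNA sequencing libraries of mouse LSK cells. The genes were taken by name from the 25078 genes of the deposited tables, and all 10 were present. LSK cells are the lineage-negative, Sca1-positive, c-Kit-positive fraction of bone marrow, which holds the hematopoietic stem cells and multipotent progenitors. The libraries form 4 groups of 3. The CM IR group is LSK cells that came from preleukemic mice carrying Cbfb-MYH11 (CM), a leukemia fusion gene made by the inversion inv(16), and were irradiated ex vivo with 3.5 Gy. The CM NIR group is cells from the same CM mice that went through the incubation without irradiation. WT IR and WT NIR are the irradiated and unirradiated cells of mice whose genotype label is wild type (WT) and whose sample titles say control. The library names carry the code C for WT animals 1 and 3, WT for WT animal 2 and CHW for all CM animals, and these codes are not explained. All cells were harvested 24 h after irradiation or the matching incubation. Each of the 6 animals gave 1 IR and 1 NIR library, so CM and WT were compared between different animals and IR and NIR within animals. The sources used here give neither how and in which cells the fusion gene was switched on nor the age or strain of the mice.

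An imprinted gene is transcribed mainly or wholly from the copy inherited from one parent, because DNA methylation laid down in the egg or sperm marks the copies differently at control regions. Many imprinted genes act on growth: in mice, several paternally expressed ones promote it and several maternally expressed ones restrain it. In mouse hematopoietic stem cells the maternally expressed H19 and Meg3 loci are known for their part in keeping long-term stem cells quiescent and intact, and Igf2r and Grb10 act on the insulin-like growth factor (IGF) signals that drive these cells to divide. Gene counts add both parental copies, so the values below are total RNA of a gene and say nothing of which copy was read.

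The libraries held 68.5 to 110.8 M gene counts. The low-count filter kept 14599 genes for testing, among them 7 of the 10 imprinted genes; H19, Peg3 and Mest did not pass it. The c-Kit gene Kit lay between 148 and 284 CPM (counts scaled to library size) in all libraries and the Sca1 gene Ly6a between 42 and 457 CPM. The summed level of 15 stroma and bone markers was 62.1 to 131 CPM in CM IR, 61.4 to 160 in CM NIR, 106 to 116 in WT IR and 80.6 to 133 in WT NIR. Runx2, at 52.7 to 115 CPM, and Pdgfrb, at 2.33 to 36.8 CPM, made up most of it, while Col1a1, Pdgfra and Cxcl12 were at or under 0.386, 0.0675 and 0.692 CPM. Of its 9 tested genes 1 passed, Lepr, higher in CM NIR at 3.68 ± 0.708 CPM against 1.14 ± 0.42 CPM in WT NIR (SD, n = 3; adjusted p = 0.029). The summed level of 11 mast cell and basophil markers was 2116, 369 and 1355 CPM in CM IR animals 1, 2 and 3 and 1804, 281 and 2355 CPM in CM NIR, against 509, 260 and 334 CPM in WT IR and 771, 217 and 267 CPM in WT NIR. CM animals 1 and 3 thus stood apart from CM animal 2 and from WT in this sum. Of its 11 tested genes 9 had log2 fold changes above 0 in unirradiated CM against WT (median 2.67), and 1 passed as higher. Prss34 lay the other way, with 3.55 ± 1.98 CPM in CM NIR against 30.3 ± 27.5 CPM in WT NIR. Mcpt8 had 112 ± 55.1 CPM in CM NIR against 129 ± 92.2 CPM in WT NIR. In unirradiated cells 2 of 12 tested neutrophil markers passed as higher in CM and 3 as lower, among the lower ones S100a8 with 5.59 ± 2.92 CPM in CM NIR against 77.8 ± 38.1 CPM in WT NIR. Vcam1 of the macrophage list and Il2rb of the T and NK cell list also passed as lower in that comparison. Among all tested genes 0.938% passed as higher and 0.685% as lower there. No tested gene of the stem cell, endothelial, erythroid, megakaryocyte and B cell lists passed. The megakaryocyte sums were 221 to 504 CPM in CM NIR and 120 to 299 CPM in WT NIR. In the macrophage list 8 of 9 tested genes had log2 fold changes above 0 (median 0.47), and in the T and NK cell list 1 of 8 (median -0.9). In the neutrophil list 4 of 12 lay above 0 (median -1.56). Lcn2 of that list had 161 ± 86.1 CPM in CM NIR against 33.6 ± 9.57 CPM in WT NIR. The macrophage sums were 543 to 2918 CPM in CM NIR and 690 to 2790 CPM in WT NIR, and overlapped. The neutrophil sums were 2555 to 3663 CPM in CM NIR and 3059 to 3764 CPM in WT NIR, and overlapped. CM animal 3 was also unusual in that its IR library lay at -8.92 on the first principal component of all tested genes, far from the -75.9 of its own NIR library, while the 2 libraries of CM animal 1 lay at -78.8 and -75. Some results for Igf2r, Meg3 and Cd81 are also given below without both libraries of CM animal 3.

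To compare genes with each other, levels were set on the deposited RPKM scale, which divides by exon length. Grb10 was the most abundant of the 10 genes in every group, at 15.7 ± 7.08 RPKM in CM IR, 19.3 ± 9.09 in CM NIR, 6.34 ± 0.952 in WT IR and 10.6 ± 0.84 in WT NIR (mean ± SD, n = 3 animals). Sgce came next in every group, with 3.34 ± 0.521 RPKM in CM IR, 3.65 ± 1.08 in CM NIR, 1.64 ± 0.284 in WT IR and 1.8 ± 0.649 in WT NIR. The order of the following pair depended on genotype. In CM cells Peg10 came after Sgce, at 2.13 ± 0.352 RPKM in CM IR and 2.63 ± 0.314 in CM NIR, and Igf2r after it, at 0.397 ± 0.224 and 0.171 ± 0.0344 RPKM in those groups. In WT cells Igf2r came after Sgce, at 1.22 ± 0.185 RPKM in WT IR and 1.27 ± 0.318 in WT NIR, and Peg10 after it, at 0.462 ± 0.0611 and 0.51 ± 0.0813 RPKM. Ndn was next in every group, with means of 0.134 to 0.451 RPKM, and differed from the gene before it, Igf2r in CM cells and Peg10 in WT cells, by less than the larger of the 2 SDs. Plagl1, Meg3, H19, Mest and Peg3 had group means at or under 0.105 RPKM, and within a group most neighbours among these 5 differed by less than the larger of their SDs. Sgce also lay within its SD of the next gene, Peg10, in CM NIR and of Igf2r in WT NIR.

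**Figure D1:**
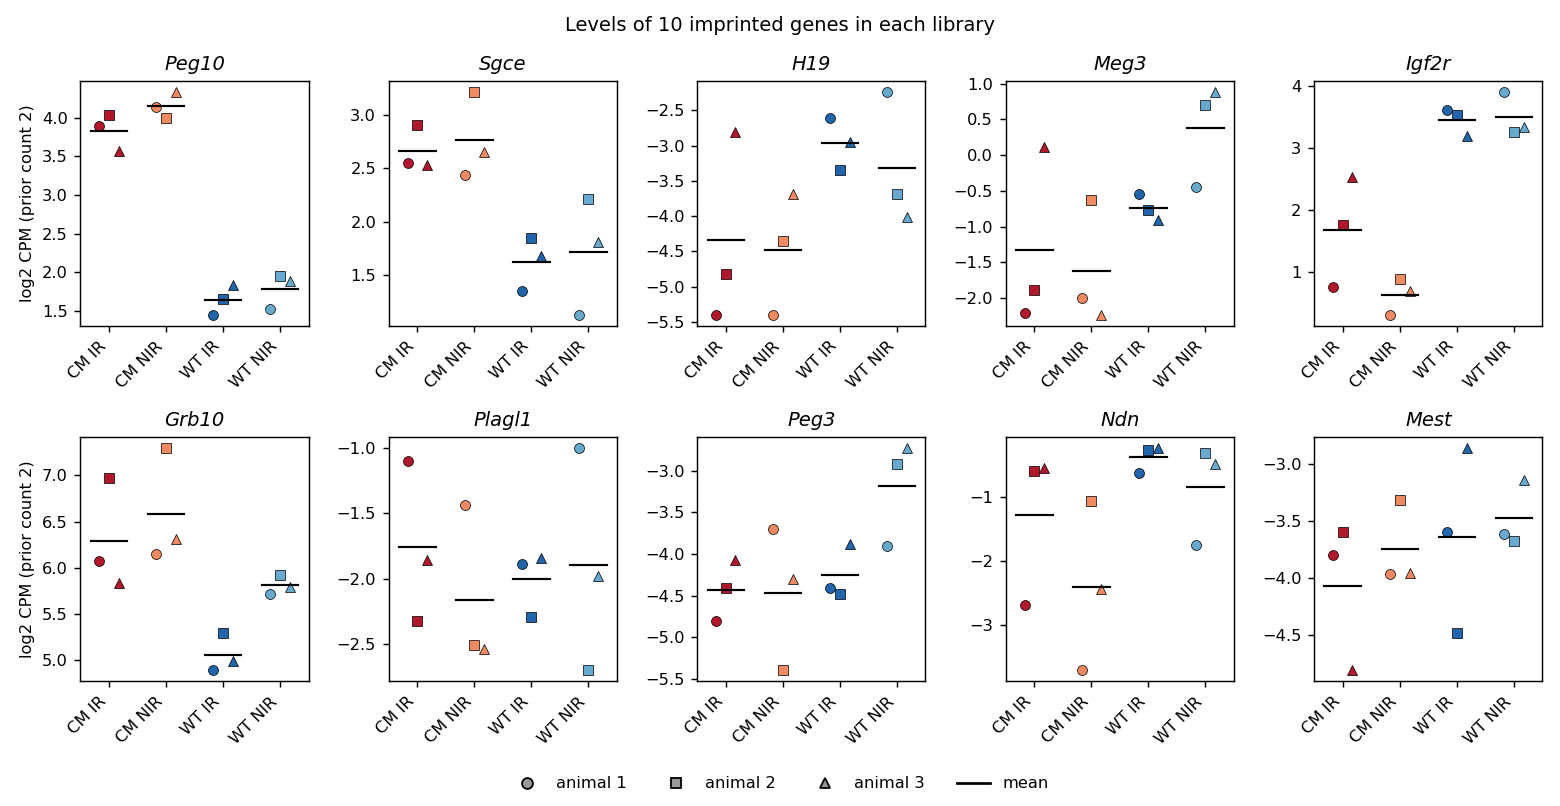
Level of each of the 10 genes as log2 CPM (prior count 2) in every library, with a panel per gene and the groups CM IR, CM NIR, WT IR and WT NIR from left to right; points are animals, marked by shape, and lines are group means. Peg10 stands higher in all 6 CM libraries than in all 6 WT libraries and Igf2r lower, while H19, Peg3 and Mest lie near the floor of detection.

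In unirradiated cells, Peg10 was higher and Igf2r lower in CM than in WT, and these were the 2 of the 7 tested imprinted genes that passed an adjusted p of 0.05 (edgeR quasi-likelihood test, Benjamini-Hochberg over all 14599 genes). Of all tested genes, 0.938% passed as higher and 0.685% as lower in this comparison. In irradiated cells Peg10 again passed as higher and no member passed as lower, beside 0.39% and 0.274% of all genes. Without irradiation the groups of 3 did not overlap in CPM for 3 members higher in CM (8.14% of all genes) and 2 lower in CM (7.84%). After it they did not overlap for 3 members higher (9.23%) and 1 lower (8.36%). The median log2 fold change of the 7 genes, CM over WT, was -0.36 without and 0.35 with irradiation, beside 0.017 and 0.018 over all tested genes. These are bulk libraries, in which fewer cells of a type and less RNA per cell cannot be told apart. The test takes the IR and NIR libraries of an animal as independent, so its p-values for CM against WT may be too small.

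**Figure D2:**
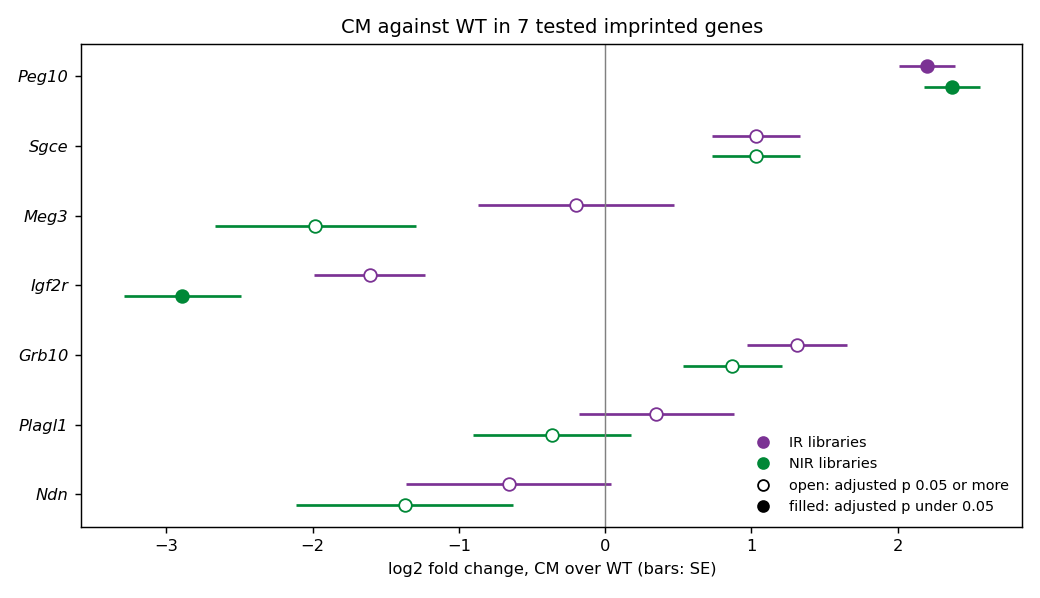
Log2 fold change of CM over WT for the 7 tested imprinted genes, in irradiated and in unirradiated cells; bars are the SE of the fit, and filled points passed an adjusted p of 0.05. Peg10 lies at 2.2 in IR and 2.37 in NIR cells and Igf2r at -1.61 in IR and -2.89 in NIR cells, and only Peg10 in both settings and Igf2r in NIR cells are filled.

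Peg10 is a paternally expressed gene derived from a retrotransposon; its protein assembles into virus-like particles and is needed for placental development. It lies at chr6:4747306-4760516 on the plus strand (mm10). In unirradiated cells Peg10 had 17.6, 15.8 and 20.1 CPM in CM animals 1, 2 and 3, against 2.84, 3.83 and 3.66 CPM in WT animals 1, 2 and 3. Every CM library was well above every WT library. The fold was 5.18 (log2 2.37 ± 0.19 SE, adjusted p = 0.000835), and by p Peg10 ranked 2 among all tested genes. After irradiation it had 14.8, 16.4 and 11.9 CPM in CM and 2.7, 3.11 and 3.53 CPM in WT, again with no overlap. That fold was 4.6 (log2 2.2 ± 0.19, adjusted p = 0.00162, again ranking 2). CM animal 2 had mast cell and basophil sums of 369 CPM in its IR and 281 CPM in its NIR library. Its Peg10 level was 16.4 CPM in the IR library, the highest of the CM IR values. In the NIR library it was 15.8 CPM, the lowest of the CM NIR values. The part of mast cells and basophils in the Peg10 difference was not tested. Leaving out any 1 library of a comparison kept the call, with log2 fold changes of 2.25 to 2.46 without irradiation and 2.1 to 2.32 after it. The libraries carry numbers of 2 series, whose meaning is not stated, and with the series as a term the log2 fold changes were 2.42 (adjusted p = 0.00243) and 2.27 (adjusted p = 0.00463). Within the first series, CM animals 1 and 2 had 17.6 and 15.8 CPM unirradiated against 2.84 CPM in WT animal 1; within the second, CM animal 3 had 20.1 CPM against 3.83 and 3.66 CPM in WT animals 2 and 3.

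Sgce encodes epsilon-sarcoglycan, a membrane protein, and is the paternally expressed partner of Peg10. It lies at chr6:4674350-4747204 on the minus strand, and the 2 genes are read away from each other from starts 102 bases apart. Sgce had 5.4, 9.25 and 6.25 CPM in CM NIR animals, against 2.16, 4.59 and 3.47 CPM in WT NIR animals, with no overlap. Its log2 fold change was 1.03 ± 0.3 and did not pass the test (adjusted p = 0.124). In irradiated cells it had 5.81, 7.44 and 5.77 CPM in CM, against 2.52, 3.59 and 3.18 CPM in WT, once more without overlap and without passing (log2 1.03 ± 0.3, adjusted p = 0.158). DESeq2 called Sgce in both settings, with adjusted p-values of 0.0185 and 0.0227.

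The balance between the 2 partners was read as the ratio of their RPKM within each library. Peg10 over Sgce was 0.917, 0.482 and 0.906 in CM NIR animals, against 0.369, 0.235 and 0.297 in WT NIR animals. After irradiation it was 0.715, 0.618 and 0.579 in CM, against 0.301, 0.244 and 0.312 in WT. All 6 CM ratios were above all 6 WT ratios. The difference of the mean log2 ratio, CM minus WT, was 1.32 without and 1.16 with irradiation, each with a two-sided exact permutation p of 0.1 (0.1 after adjustment over these 2 settings), which is the smallest that 3 animals against 3 can give.

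**Figure D3:**
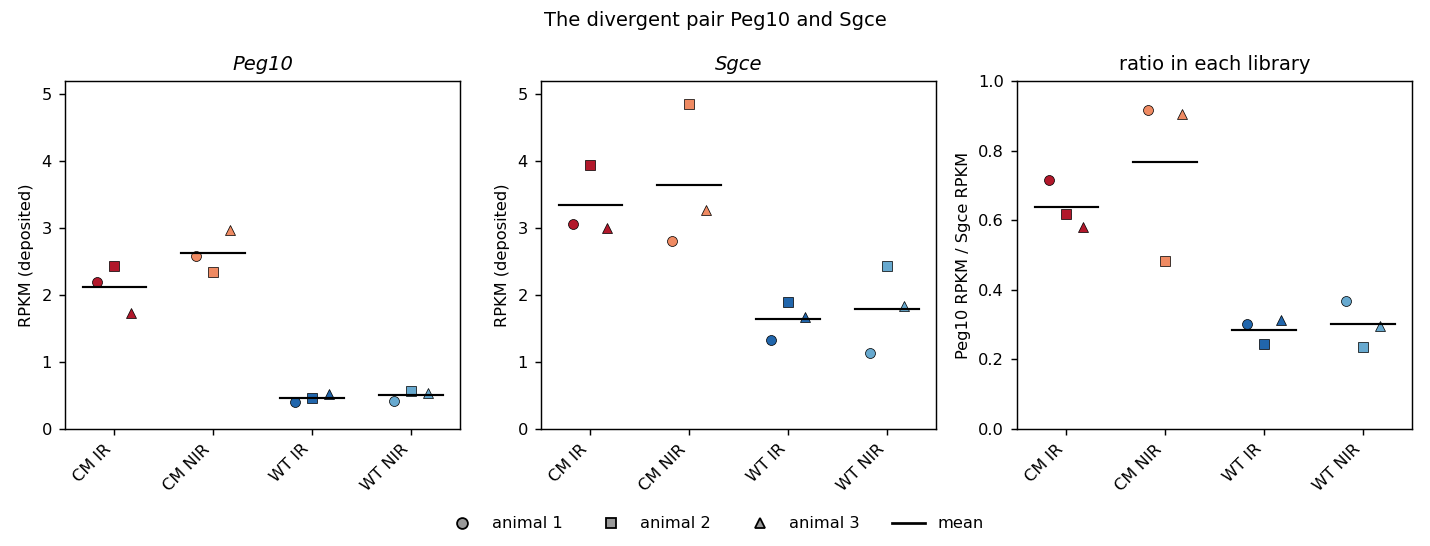
RPKM of Peg10 and of Sgce, and their ratio, in every library by group, with points for animals 1 to 3 and lines for the mean. The Peg10 over Sgce ratio lies between 0.482 and 0.917 in CM libraries and between 0.235 and 0.369 in WT libraries.

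Values for 3 other genes of this imprinted cluster lay on both sides of 0. Asb4, which encodes an ankyrin repeat protein of ubiquitin ligases, had a log2 fold change of 1.15 ± 0.51 without irradiation (adjusted p = 0.324) and 1.16 ± 0.51 after it (adjusted p = 0.405). Ppp1r9a, which encodes the actin-binding protein neurabin, had 0.47 ± 0.39 and 0.63 ± 0.39 (adjusted p = 0.603 and 0.592). Tfpi2, a protease inhibitor gene, had lower levels in CM, with 0.176 ± 0.0382 CPM in CM NIR against 0.347 ± 0.0491 CPM in WT NIR, and after irradiation 0.171 ± 0.0567 CPM in CM against 0.417 ± 0.0921 CPM in WT (SD, n = 3). Its log2 fold changes were -0.97 ± 0.33 (adjusted p = 0.19) and -1.28 ± 0.33 (adjusted p = 0.117), and DESeq2 called the second (0.0435). By edgeR none of the 3 passed, and whether Peg10 differed from them was not tested.

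Igf2r, the maternally expressed gene of the cation-independent mannose 6-phosphate receptor, restrains growth by carrying IGF2 to lysosomes for breakdown. It lies at chr17:12682406-12769706 on the minus strand and overlaps Airn, the noncoding RNA that silences the paternal Igf2r copy, on the plus strand. Igf2r had 1.22, 1.83 and 1.61 CPM in CM NIR animals, against 14.9, 9.56 and 10.1 CPM in WT NIR animals. Every CM library was below every WT library. Igf2r was 7.41-fold lower in CM (log2 -2.89 ± 0.4, adjusted p = 0.0144). The call was lost when CM NIR animal 1 (adjusted p = 0.0871), CM NIR animal 3 (0.0819) or WT NIR animal 3 (0.0538) was left out, with log2 fold changes of -3.02 to -2.66 over all 6 such fits. It held without both libraries of CM animal 3 (log2 -2.91, adjusted p = 0.0173) and with the library number series as a term (log2 -2.86, adjusted p = 0.029). Within the first series the values were 1.22 and 1.83 CPM in CM against 14.9 CPM in WT, and within the second 1.61 CPM in CM against 9.56 and 10.1 CPM in WT. CM animal 2, with a mast cell and basophil sum of 281 CPM in its NIR library, had 1.83 CPM of Igf2r there, the highest of the CM NIR values. The part of mast cells and basophils in the Igf2r difference was not tested. Markers of other cell types differed in both directions between the same groups, as given above, and their part in the Igf2r difference was also not tested.

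In irradiated cells Igf2r had 1.67, 3.37 and 5.76 CPM in CM, against 12.3, 11.6 and 9.14 CPM in WT, and the groups again did not overlap. The log2 fold change was -1.61 ± 0.38 and did not pass (adjusted p = 0.0985). CM animal 3 had the highest of the CM values, and without its IR library the log2 fold change was -2.13 (adjusted p = 0.0196); without both its libraries it was -2.12 (adjusted p = 0.0376). Airn itself was scarce, with counts of 0, 0 and 4 in CM IR, 0, 3 and 0 in CM NIR, 0, 10 and 9 in WT IR and 8, 17 and 8 in WT NIR, and it was not kept for testing. The kit is stranded but the sources used here do not state the strand setting of the counting, so reads of Igf2r and Airn over their overlap may not be fully separated.

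Grb10, maternally expressed in most mouse tissues, encodes an adaptor that binds the insulin and IGF1 receptors and dampens their signals. It lies at chr11:11930499-12037420 on the minus strand. Grb10 had 71, 158 and 79.2 CPM in CM NIR animals, against 52.5, 60.7 and 55.2 CPM in WT NIR animals. The groups did not overlap, but CM animal 2 lay far above the others. The difference, 0.87 ± 0.34 on the log2 scale, stayed short of the threshold (adjusted p = 0.255). In irradiated cells Grb10 had 67, 125 and 56.8 CPM in CM, against 29.6, 39.1 and 31.8 CPM in WT, with a log2 fold change of 1.31 ± 0.34 that also did not pass (adjusted p = 0.121). DESeq2 called this second difference (adjusted p = 0.00926). Igf2r over Grb10, as a ratio of RPKM within a library, was 0.0101, 0.00679 and 0.0119 in CM NIR, against 0.166, 0.0923 and 0.107 in WT NIR, and 0.0146, 0.0158 and 0.0594 in CM IR, against 0.243, 0.174 and 0.169 in WT IR. All CM ratios were below all WT ratios, with a mean log2 difference, CM minus WT, of -3.66 without and -3.01 with irradiation. The two-sided exact permutation p was 0.1 in each setting, the smallest possible, and 0.1 adjusted over the 2 settings. That outcome was fixed by the levels above, where within each setting Igf2r was lower and Grb10 higher in CM without overlap. The ratio is therefore a description and adds no further support.

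The start regions of these 2 growth-restraining genes are shown because they have the densest CG content of the members with a window and because Grb10 has separate starts that gene counts merge. RefSeq windows on GRCm38.p6 run from 250 bases before to 50 bases after an annotated start and were found for 7 of the 10 genes, 11 windows in all. CG dinucleotides, the sites of DNA methylation, are in capitals.
Igf2r, chr17:12769657-12769956, minus strand: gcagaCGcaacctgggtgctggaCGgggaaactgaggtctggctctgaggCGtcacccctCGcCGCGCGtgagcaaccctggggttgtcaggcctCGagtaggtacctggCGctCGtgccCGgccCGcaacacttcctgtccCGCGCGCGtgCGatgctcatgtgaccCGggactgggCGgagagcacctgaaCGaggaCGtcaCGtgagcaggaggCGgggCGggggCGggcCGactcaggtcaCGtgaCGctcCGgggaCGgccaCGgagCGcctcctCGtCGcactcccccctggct
Grb10 upstream start, chr11:12037371-12037670, minus strand: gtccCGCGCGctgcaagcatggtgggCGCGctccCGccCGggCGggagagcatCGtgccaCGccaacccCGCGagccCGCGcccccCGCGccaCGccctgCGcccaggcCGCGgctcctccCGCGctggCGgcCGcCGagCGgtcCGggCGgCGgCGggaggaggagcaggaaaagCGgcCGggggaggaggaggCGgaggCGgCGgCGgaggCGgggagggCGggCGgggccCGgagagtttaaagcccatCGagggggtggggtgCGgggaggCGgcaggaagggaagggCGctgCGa
Grb10 downstream start, chr11:12027922-12028221, minus strand: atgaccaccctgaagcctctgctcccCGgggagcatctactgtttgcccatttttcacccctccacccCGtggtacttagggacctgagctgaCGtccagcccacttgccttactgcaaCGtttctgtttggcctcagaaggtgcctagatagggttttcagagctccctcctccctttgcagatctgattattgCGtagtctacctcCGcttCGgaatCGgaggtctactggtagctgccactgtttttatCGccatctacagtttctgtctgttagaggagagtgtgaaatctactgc
The Igf2r window holds 34 CG dinucleotides, a number that 7.73% of all 32851 windows reach, and the upstream Grb10 window holds 45, which 1.93% reach. The downstream Grb10 window holds 9, close to the median of 7 over all windows. Both strands were also searched for the core motif TGCCGC of ZFP57, a zinc finger protein that keeps imprints in the embryo, and for the core GCCAT of YY1, a zinc finger factor found at several imprinted control regions. TGCCGC occurred 1 time in the upstream Grb10 window and not in the other 2, and GCCAT 1 time in the downstream Grb10 window and not in the other 2, beside 11.6% and 40.5% of all windows with at least 1 match. Methylation and factor binding were not measured.

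Meg3 is the maternally expressed noncoding RNA of the Dlk1-Meg3 domain, at chr12:109540996-109571729 on the plus strand. Without irradiation it had 0.226, 0.622 and 0.189 CPM in CM, against 0.706, 1.6 and 1.82 CPM in WT. The groups did not overlap, though CM animal 2 lay close under WT animal 1. The log2 fold change was -1.98 ± 0.69 and did not pass (adjusted p = 0.197). It was -2.72 without CM NIR animal 2 (adjusted p = 0.0626), the largest move of the 6 fits that left out a library. With irradiation Meg3 had 0.192, 0.246 and 1.06 CPM in CM, against 0.657, 0.563 and 0.51 CPM in WT. Here the order broke, because the IR library of CM animal 3 had the highest level of the 6 irradiated libraries and the other CM animals the lowest.

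Dlk1, the paternally expressed gene of a Notch-like membrane protein, had 0.108, 1.51 and 4 CPM in CM IR, 0.133, 3.26 and 0.0945 CPM in CM NIR, 1.06, 1.67 and 1.29 CPM in WT IR and 0.678, 5.73 and 5 CPM in WT NIR. The noncoding RNA Rian, read from the maternal copy like Meg3, had 0.0961, 0.2 and 1.24 CPM in CM IR, 0.0266, 0.203 and 0.0405 CPM in CM NIR, 0.329, 0.626 and 0.695 CPM in WT IR and 0.418, 2.15 and 2.27 CPM in WT NIR. Within WT, animal 1 had the lowest unirradiated level of all 3 genes, and within CM IR animal 3 had the highest. As mean log2 CPM, 12 stem cell markers were at 1.4, 3.01 and 2.8 in CM IR and 1.43, 3.3 and 1.45 in CM NIR. In WT IR they were at 2.42, 2.6 and 2.47 and in WT NIR at 2.13, 2.74 and 2.62. Their summed CPM was 237 to 387 in CM IR and 285 to 528 in CM NIR. In WT IR the sum was 178 to 201 CPM and in WT NIR 199 to 232 CPM. The part of stem cells in the levels of Dlk1, Meg3 and Rian was not tested. Rian had a log2 fold change, CM over WT, of -4.13 ± 1.1 without irradiation that did not pass (adjusted p = 0.0992). Mirg, another noncoding RNA of the domain, had group sums of 4, 4, 11 and 9 counts in CM IR, CM NIR, WT IR and WT NIR.

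**Figure D4:**
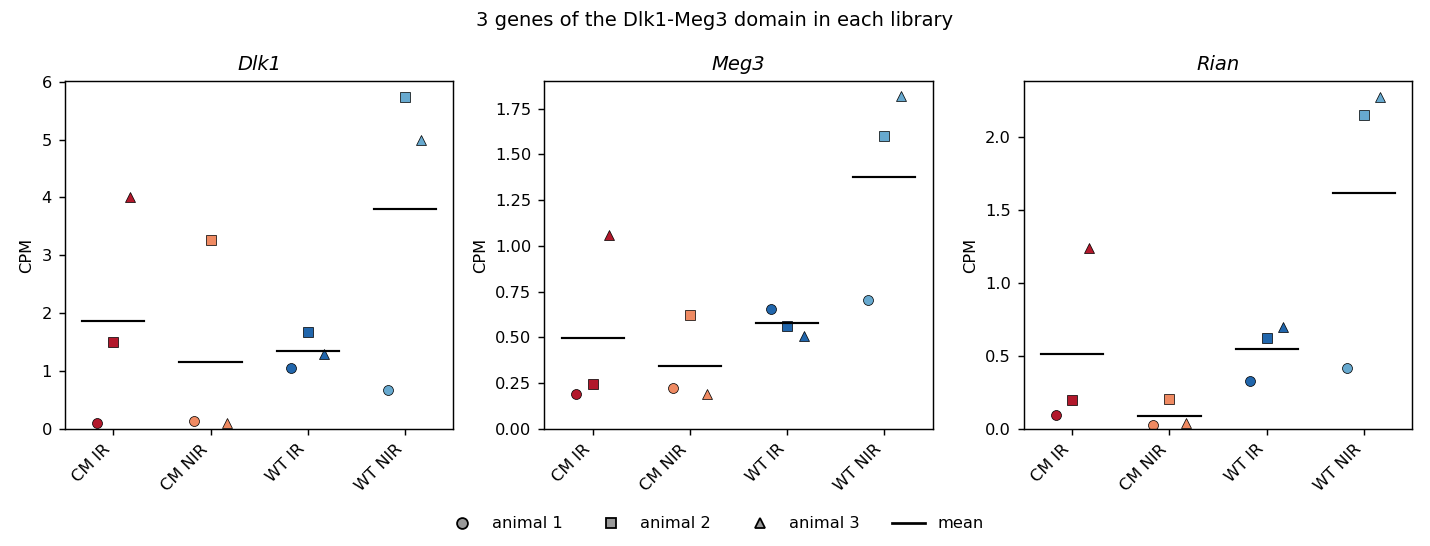
CPM of Dlk1, Meg3 and Rian in every library by group; points are animals 1 to 3 and lines are means. CM animal 3 is the lowest CM NIR library for Dlk1 and Meg3 but the highest CM IR library for all 3 genes, at 4 CPM of Dlk1, 1.06 of Meg3 and 1.24 of Rian.

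H19, the maternally expressed noncoding RNA that carries miR-675 and lies next to Igf2, was close to undetected. It lies at chr7:142575530-142578146 on the minus strand. Counts were 0, 1 and 10 in CM IR animals, 0, 2 and 4 in CM NIR, 12, 7 and 12 in WT IR and 13, 5 and 3 in WT NIR. Group sums were 11 and 6 counts in CM IR and CM NIR and 31 and 21 in WT IR and WT NIR, and the single libraries of both genotypes overlapped. In CM animal 1 both libraries were at 0, which allows up to 0.036 CPM in the IR and 0.0399 CPM in the NIR library (3 counts; counting error only). Igf2, its paternally expressed neighbour and a fetal growth factor, was also scarce, with group sums of 27, 15, 3 and 13 counts in CM IR, CM NIR, WT IR and WT NIR.

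Ndn encodes necdin, a paternally expressed member of the MAGE family that limits cell proliferation, at chr7:62348277-62349927 on the plus strand. It had 0.0532, 0.457 and 0.162 CPM in CM NIR, against 0.274, 0.782 and 0.692 CPM in WT NIR. The groups overlapped, and the difference was -1.37 ± 0.74 on the log2 scale (adjusted p = 0.427). It was -2.43 without CM NIR animal 2 and -0.91 without CM NIR animal 1. With irradiation it had 0.132, 0.634 and 0.658 CPM in CM, against 0.622, 0.807 and 0.827 CPM in WT, with overlap again. Its neighbour Mkrn3, a paternally expressed ubiquitin ligase gene, was at 0.598 ± 0.185 CPM in CM IR, 0.65 ± 0.35 in CM NIR, 0.783 ± 0.0615 in WT IR and 0.775 ± 0.172 in WT NIR (SD, n = 3). Magel2, the MAGE family gene next to Ndn, had 0 counts in every library.

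Plagl1, a paternally expressed zinc finger transcription factor gene at chr10:13090832-13131694 on the plus strand, had 0.444, 0.176 and 0.251 CPM in CM IR, 0.346, 0.152 and 0.148 in CM NIR, 0.247, 0.18 and 0.255 in WT IR and 0.476, 0.13 and 0.231 in WT NIR. The genotypes overlapped in both settings. Peg3, a paternally expressed zinc finger gene at chr7:6705960-6730419 on the minus strand, summed to 6, 6, 9 and 23 counts in CM IR, CM NIR, WT IR and WT NIR, with at most 10 counts in a library. Mest, a paternally expressed hydrolase gene at chr6:30733506-30748466 on the plus strand, summed to 10, 12, 20 and 16 counts, with at most 13 in a library. Copg2, a coat protein gene that overlaps Mest on the other strand, was at 101 ± 12.8, 98.8 ± 11.8, 105 ± 10.2 and 106 ± 13.7 CPM in those 4 groups. Usp29, a ubiquitin protease gene of the Peg3 domain, had counts of 22, 17 and 8 in CM IR and 12, 16 and 6 in CM NIR, against 1, 0 and 0 in WT IR and 8, 0 and 0 in WT NIR. Usp29 did not pass the test in irradiated cells (adjusted p = 0.121) or in unirradiated cells (adjusted p = 0.41).

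None of the 7 tested genes passed an adjusted p of 0.05 between irradiated and unirradiated cells of either genotype in the fit without a term for the animal. Of all tested genes 0.00685% passed in CM and 0.116% in WT, and at an unadjusted p under 0.05 it was 1.62% in CM and 4.05% in WT. At that unadjusted level 1 member was found in CM and 0 in WT, and DESeq2 called 0 members in each genotype. The IR and NIR libraries did not overlap for Grb10 and Meg3 in WT, both lower after irradiation (6.63% of all genes were lower without overlap), and for no member in CM (2.55% of all genes, either direction).

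Grb10 had a lower level after irradiation in each of the 3 WT animals. It had 29.6, 39.1 and 31.8 CPM in WT IR, against 52.5, 60.7 and 55.2 CPM in WT NIR, and the change within animals 1, 2 and 3 was -0.83, -0.63 and -0.8 on the log2 CPM scale. Without a term for the animal the response was -0.75 ± 0.34 on the log2 scale (adjusted p = 1). With the animal as a block it was -0.75 ± 0.08 and passed (adjusted p = 0.0184), so that Grb10 fell in WT by that fit, in which 0.178% of all genes passed as lower. In CM animals the changes were -0.08, -0.33 and -0.48, and the response over the group was -0.31 ± 0.34 (adjusted p = 1; blocked -0.3 ± 0.08, adjusted p = 0.578). The difference of the 2 responses, CM minus WT, was 0.44 ± 0.47 and did not pass with or without the block (adjusted p = 1 in each).

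Igf2r had 1.67, 3.37 and 5.76 CPM in CM IR, against 1.22, 1.83 and 1.61 CPM in CM NIR. All 3 CM animals had more after irradiation, by 0.44, 0.87 and 1.83 on the log2 CPM scale, whereas WT animals changed by -0.28, 0.28 and -0.14. The log2 fold change in CM was 1.21 ± 0.38 and did not pass (unadjusted p = 0.00988, adjusted p = 1; blocked 1.08 ± 0.26, adjusted p = 0.553). The difference of the responses, 1.27 ± 0.53, did not pass either (unadjusted p = 0.0374, adjusted p = 1). CM animal 3 had the largest change, and without both its libraries the CM log2 fold change was 0.73 and the difference 0.8.

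**Figure D5:**
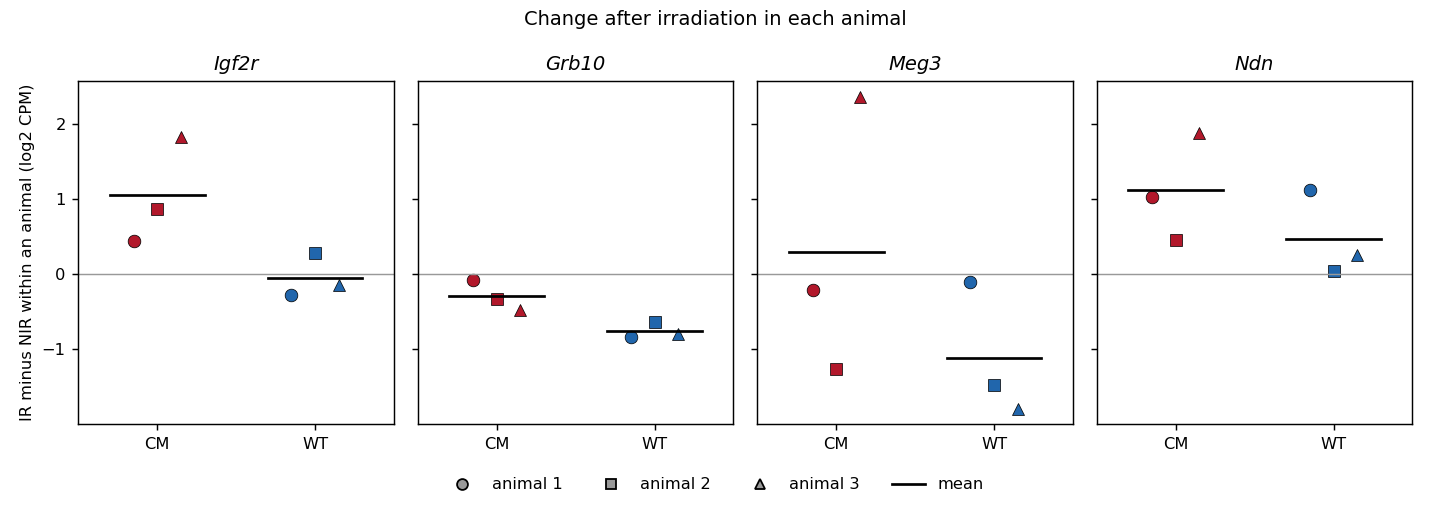
Change after irradiation within each animal, as IR minus NIR log2 CPM (prior count 2), for Igf2r, Grb10, Meg3 and Ndn, with CM left of WT; points are animals 1 to 3 and lines the means. Grb10 lies between -0.83 and -0.63 in all 3 WT animals, and Igf2r between 0.44 and 1.83 in all 3 CM animals.

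Meg3 changed by -0.1, -1.47 and -1.79 on the log2 CPM scale within WT animals and by -0.21, -1.26 and 2.36 within CM animals. The WT response was -1.25 ± 0.66 on the log2 scale (adjusted p = 1; blocked adjusted p = 0.503). The difference of the responses was 1.78 ± 0.95 (adjusted p = 1) and was 0.32 without both libraries of CM animal 3, the only animal with an increase. Ndn had changes above 0 in all 6 animals, of 1.02, 0.45 and 1.88 in CM and 1.12, 0.04 and 0.25 in WT, but at 4 to 55 counts in the CM libraries its CM response, 1.07 ± 0.74 on the log2 scale, was not called (adjusted p = 1) and ran from 0.62 to 2.13 over the fits leaving out 1 library. Peg10 changed by -0.25, 0.05 and -0.76 within CM animals and by -0.07, -0.3 and -0.05 within WT animals, and the difference of its responses did not pass (adjusted p = 1).

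No member passed in the test of whether irradiation acted differently in CM and WT, where 0% of all genes passed. At an unadjusted p under 0.05, 0.726% of all genes and 1 member, Igf2r, were found, and DESeq2 called 0 genes.

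A list of 60 other imprinted genes gave the wider setting. Of these, 58 were in the tables, 4 had no count in any library and 35 were tested. None passed in any of the 5 comparisons by edgeR over all 12 libraries with the low-count filter, TMM and group means only. At an unadjusted p under 0.05 in unirradiated CM against WT, 5 had more RNA in CM and 6 less (8.56% and 6.5% of all genes). The medians of the list, CM over WT, were -0.05 without and 0.03 with irradiation. Cd81, a tetraspanin gene near H19 and Igf2 on chromosome 7, was nearest to the threshold, with 11.6, 25.6 and 10.3 CPM in CM NIR, against 87.1, 61.4 and 55.1 CPM in WT NIR (log2 -2.1 ± 0.45, adjusted p = 0.0506). Cd81 passed in 5 of 8 other alternatives, among them DESeq2 (adjusted p = 0.000124), RLE factors (0.0495) and no filter (0.0475), and without CM NIR animal 2 (0.0174), but not without both libraries of CM animal 3 (0.191). Ascl2, a basic helix-loop-helix factor gene, followed with -1.95 ± 0.46 (adjusted p = 0.0704), and passed with DESeq2 (0.00572) and with the library number series as a term (0.0249). Ddc, the dopa decarboxylase gene beside Grb10, had counts of 456, 26 and 270 in CM IR and 422, 26 and 502 in CM NIR, against 9, 6 and 11 in WT IR and 13, 10 and 7 in WT NIR. Its high values were in CM animals 1 and 3, the animals with the high mast cell and basophil sums of 1355 to 2355 CPM, and the part of those cells in the Ddc level was not tested; the log2 fold changes of 5.06 ± 1.21 and 5.04 ± 1.2 did not pass (adjusted p = 0.0993 after and 0.0707 without irradiation). DESeq2 called Ddc in both settings (4.15e-05 and 2.42e-05), and without CM NIR animal 2 it passed in unirradiated cells (log2 5.59, adjusted p = 0.0152).

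Genes that keep imprints in place, such as the DNA methyltransferases, their cofactors and zinc finger readers, were examined as a list of 16, of which 15 were tested and none passed in any comparison by the same fit. The median log2 fold change, CM over WT, was -0.06 without and -0.05 with irradiation. Dnmt3l, the cofactor of de novo methylation in germ cells, had 13.9, 4.11 and 15.3 CPM in CM NIR, against 3.75, 2.51 and 2.1 CPM in WT NIR (log2 2 ± 0.49, adjusted p = 0.0759). It passed with DESeq2 (adjusted p = 0.00168) and without CM NIR animal 2 (0.0137). The mast cell and basophil sums of these CM NIR animals were 1804, 281 and 2355 CPM. In CM IR Dnmt3l had 15.9, 6.69 and 7.48 CPM in animals 1, 2 and 3, beside sums of 2116, 369 and 1355 CPM. The part of those cells in the Dnmt3l level was not tested.

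Of 32 genes of IGF signalling, 28 were tested, with medians of -0.03 without and -0.02 with irradiation for CM over WT. The single gene to pass in any comparison by the same fit was Lin28b, which encodes an RNA-binding protein known for blocking let-7 maturation in fetal blood stem cells. Lin28b was lower in unirradiated CM cells, with 0.0532, 0.102 and 0.081 CPM in CM, against 0.288, 0.336 and 0.397 CPM in WT (log2 -2.09 ± 0.42, adjusted p = 0.0419). These are 4 to 8 counts in CM and 20 to 31 counts in WT libraries. The call was lost in 5 of the 6 fits that left out a library (adjusted p up to 0.174; 0.0341 without CM NIR animal 2) and in 3 of 8 other alternatives, among them no low-count filter (0.0542). After irradiation its log2 fold change was -0.6 ± 0.41 (adjusted p = 0.638). Igf2bp2, an RNA-binding protein gene that acts on Igf2 mRNA, had 1.8 ± 0.61 and Irs1, the insulin receptor substrate gene, had -1.9 ± 0.65 without irradiation, and neither passed (adjusted p = 0.19 and 0.195); DESeq2 called Igf2bp2 (0.0375). Igfbp5, the gene of an IGF-binding protein, had 0.478 to 5.14 CPM in WT IR and 0.0651 to 0.793 CPM in WT NIR. Its log2 fold change, IR over NIR, was 3.07 ± 0.95 in WT. By edgeR it did not pass without the animal as a block (adjusted p = 0.614) and passed with it (adjusted p = 0.0201). Other alternatives are not given for this gene.

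The genes whose levels ran most like those of a member were sought among tested genes without predicted or clone-style names. The measure was the mean absolute difference of log2 CPM over the 12 libraries, each gene centred on its own mean. This is a description, since all genes share the libraries and their genotype difference. For Peg10 they were Syne2, Prdx4 and Rhbdl3, at 0.16, 0.25 and 0.26 against a median of 1.14 over all tested genes. For Igf2r they were Tspan32, Csrp3 and Uaca, at 0.17, 0.2 and 0.25 against 1.2. Grb10 ran closest to Slc22a3, Podxl and Tulp3, at 0.2, 0.2 and 0.22 against 0.58. Slc22a3 is an organic cation transporter gene, imprinted in mouse placenta, that lies near Igf2r and not near Grb10; it had 143 ± 81.7 CPM in CM IR, 160 ± 94.9 in CM NIR, 65.3 ± 6.57 in WT IR and 78.2 ± 7.01 in WT NIR (SD, n = 3). Sgce ran closest to Gcnt2, Enah and Podxl, at 0.11, 0.15 and 0.17 against 0.56, so Podxl, the podocalyxin gene of stem and endothelial cell surfaces, was near both Sgce and Grb10. Among the genes searched Meg3 had none nearer than Il18r1 at 0.23 (median 0.88). Ndn had none nearer than Zfp964 at 0.25 (0.96) and Plagl1 none nearer than Cemip2 at 0.23 (0.49). Among the members themselves Sgce and Grb10 were closest, at 0.29, Sgce and its divergent partner Peg10 were at 0.62, and Peg10 and Igf2r were farthest apart, at 2.3.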

How the data were processed

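RNA was sequenced from 12 LSK libraries (RiboErase-depleted, stranded KAPA kit, per the labels' protocols). The deposited counts per gene are whole numbers, and the deposited RPKM values are the authors' counts scaled to exon length and library size. The submitters' processing notes name bcl2fastq 2.18.0.12, TopHat2, HTSeq 0.6.1p1 and build mm10; the sources used here state no settings, annotation or read filters. Groups came from the sample titles. Deviations from group means correlated within animals at 0.79, 0.84 and 0.13 in CM and 0.67, 0.5 and 0.41 in WT, and the labels give each IR and NIR pair 1 animal number, so the replicate block is the animal. The low-count filter was edgeR's filterByExpr, with a minimum count of 10 and a minimum total of 15. The 12 libraries entered a single fit with a mean for each group in edgeR 4.0.16 (R 4.3.3), with TMM normalization, the quasi-likelihood test and Benjamini-Hochberg adjustment at 0.05 over 14599 genes in each of 5 contrasts. That fit estimates the spread as if each library came from its own animal, which overstates the replication behind CM against WT. CPM are TMM-scaled; log2 CPM used a prior count of 2. Alternatives used DESeq2 1.42.0, RLE factors, no filter, the animal block, the library number series, limma 3.58.1 on log2(RPKM + 0.1) and log2(RPKM + 1), and leaving out libraries. At 68.5 to 110.8 M counts the spread between animals exceeds counting error except for genes of few counts; floors cover counting error only. Every pair of libraries differed beyond sampling noise (chi-square over degrees of freedom at least 12.1). The test was run on simulated data drawn without animal effects. That check therefore does not cover how the fit behaves with 2 libraries of 1 animal. Members, gene lists and rules were chosen with earlier results of these data known. A member's log2 fold change is given where its unadjusted p was under 0.05 or the change was 1 or more in size, and for members whose change within animals is described; of each list, genes that passed, or otherwise up to 3 with the smallest p, and direct neighbours of members are named.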

Additional observations from a re-analysis of the deposited data

How the results depend on the processing

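Over 29 log2 fold changes and 427 alternative values, 392 kept direction and side of the threshold, 11 lost and 23 gained the call and 1 reversed: Grb10, IR over NIR in CM, was 0.14 without CM NIR animal 2 (range -0.73 to 0.14 over the fits leaving out 1 library). Where the cause is not built into the alternative, the cause was not tested. The number of members called in WT after irradiation, 0, was 1 with the replicate block (Grb10); the block changed no other call of a member. No paired analysis was possible for CM against WT because they are different animals. The 1 member called in irradiated CM against WT became 4 with DESeq2, 2 with log2(RPKM + 1) and 2 without both libraries of CM animal 3; leaving out 1 library gave 1 to 2 members there, 1 to 2 without irradiation and 0 in the other contrasts. Counts over all genes moved more. In CM IR against NIR the 1 gene became 18 with DESeq2, 0 with the block, 3 on RPKM with no filter, 0 without CM animal 3 and 0 to 3 leaving out 1 library. In WT the 17 became 140 with DESeq2, 163 with the block, 40 and 52 on log2(RPKM + 0.1) and log2(RPKM + 1), 42 on RPKM with no filter, 1 without CM animal 3 and 1 to 4 leaving out 1 library. In unirradiated CM against WT the 237 became 922 with DESeq2, 147 without CM animal 3 and 4 to 914 leaving out 1 library; in irradiated cells the 97 became 652 with DESeq2, 14 with the library number series, 162 on log2(RPKM + 1), 204 without CM animal 3 and 3 to 270 leaving out 1 library. The difference of responses had 0 genes, 1 on log2(RPKM + 1) and 0 to 0 leaving out 1 library. At the depth of these libraries H19, Peg3 and Mest, with at most 13 counts each, allow no comparison of genotypes.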
